A study of Rattus norvegicus with 20 samples.

Results

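miR-26a and miR-26b are the 2 members of the miR-26 family on the Agilent rat miRNA array, found as the rows that carry the names rno-miR-26a and rno-miR-26b in the scanner output of every array. They are 2 of 350 miRNAs on the array, of which 348 carried 1 name in every file. The arrays were hybridized with total RNA of soleus muscle or of dorsal root ganglia (DRGs) from adult male Sprague-Dawley rats, 10 arrays for each tissue. In the denervation group (3 arrays per tissue) the right sciatic nerve had been cut 6 months earlier, and its stump ligated and moved aside. In the entrapment group (3 arrays) a non-constrictive silastic tube had lain around the nerve for 6 months. In the decompression group (3 arrays) the tube was taken off after 6 months of entrapment and the tissue was collected 3 months later. The sham control has 1 array per tissue and so has no spread of its own. Per the methods 3 rats of each group, the sham control too, went into the microarrays, but these do not say whether the array held RNA of 1 of them or a pool. The time from sham operation to collection is not stated in the labels, and the decompressed rats lived 3 months longer after the first operation than those with denervation or entrapment. Tissue was homogenized whole, so fewer cells of a type and less RNA per cell cannot be told apart.

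A microRNA lowers the output of its target mRNAs, which it finds mainly through its seed, the stretch of bases near its 5′ end. The miR-26 family lies in genes of the Ctdsp group, which encode small phosphatases of the RNA polymerase II tail, and is found in most mammalian tissues. In muscle miR-26a is known to rise during differentiation of myoblasts and to act against Ezh2, a histone methyltransferase that keeps muscle genes silent, and in sensory neurons it has been tied to axon regrowth through Gsk3b.

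The mature sequences below, from RefSeq (assembly GRCr8), are shown because the arrays had to tell apart a pair that shares its seed. Capitals mark the seed, bases 2 to 8.
miR-26a: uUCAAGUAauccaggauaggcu
miR-26b: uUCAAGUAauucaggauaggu
The seed was identical in both, and these were the 2 of 693 mature rat sequences in the RefSeq table that hold it. Counted from 1 at the 5′ end of miR-26a, the pair differed by C11U and C21U, and miR-26a has 1 more base, at position 22. The other 19 of 21 shared positions were identical. With so close a pair, part of the signal of one could come from the other, which was not tested.

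Both come from the 5′ arm of hairpins on the plus strand, shown here with the mature miRNA in capitals. Mir26a (chr8:127633048-127633137) lies within the span of the protein-coding gene Ctdspl (chr8:127520478-127644999), and Mir26b (chr9:83425709-83425793) within that of Ctdsp1 (chr9:83422755-83428411). Whether the position is exonic or intronic is not given in the table used here.
Mir26a: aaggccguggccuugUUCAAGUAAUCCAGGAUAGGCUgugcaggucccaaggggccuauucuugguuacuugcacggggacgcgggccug
Mir26b: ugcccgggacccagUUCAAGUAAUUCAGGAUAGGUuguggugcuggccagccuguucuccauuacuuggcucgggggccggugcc

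The tissues matched their labels. The summed scaled signal of 5 muscle miRNAs was 47965 to 299142 on the soleus arrays and 261 to 467 on the DRG arrays, and all 6 neuronal miRNAs were detected on every DRG array but 0 or 1 of them on a soleus array. Of the 5 muscle miRNAs, miR-499 did not separate the tissues, with a median scaled signal of 20.9 in soleus and 22.3 in the DRGs. The arrays differed in brightness, with a 6.20-fold range of the 75th percentile of the signal in soleus and a 1.62-fold range in the DRGs. Signals are therefore given after each array was scaled to this percentile (scaled signal, in intensity units), taken over the 108 miRNAs detected on all soleus arrays and over all 348 in the DRGs. Of the 45 control features, which hold no rat miRNA, 12 in soleus and 24 in the DRGs took values in sham and denervation that did not overlap those in the other injuries, and group and array handling cannot be told apart where results compare these sets. Of the 26 controls with a signal of at least 20 on the soleus sham array, 11 repeated, digit for digit, a control value found on a different soleus array. No signal of miR-26a or miR-26b was repeated in this way.

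Both miRNAs were detected on all 20 arrays. Among the 348 miRNAs, miR-26a ranked 4 to 11 by brightness on the injury arrays of either tissue, and miR-26b ranked 19 to 28. On the soleus sham array miR-26a ranked 8 and miR-26b ranked 54. The scanner software gave an error of 7.11% to 7.44% of the signal on the injury arrays for both.

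In soleus muscle, miR-26b was far lower on the sham array than on every injury array, whereas miR-26a was not. The scaled signal of miR-26b was 194 on the sham array. It was 1763, 1460 and 1209 on the 3 denervation arrays, 1184, 1239 and 1443 on the entrapment arrays, and 1370, 1223 and 1315 on the decompression arrays. The 9 injury arrays thus lay within a 1.49-fold range and did not reach the sham value.

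The scaled signal of miR-26a in soleus was 4258 on the sham array. It was 5375, 4633 and 3995 after denervation, 4540, 4284 and 5073 after entrapment, and 5071, 4691 and 5045 after decompression. The sham value stood inside the range of the denervation arrays and just below the lowest entrapment array, so this member showed no gap.

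**Figure D1:**
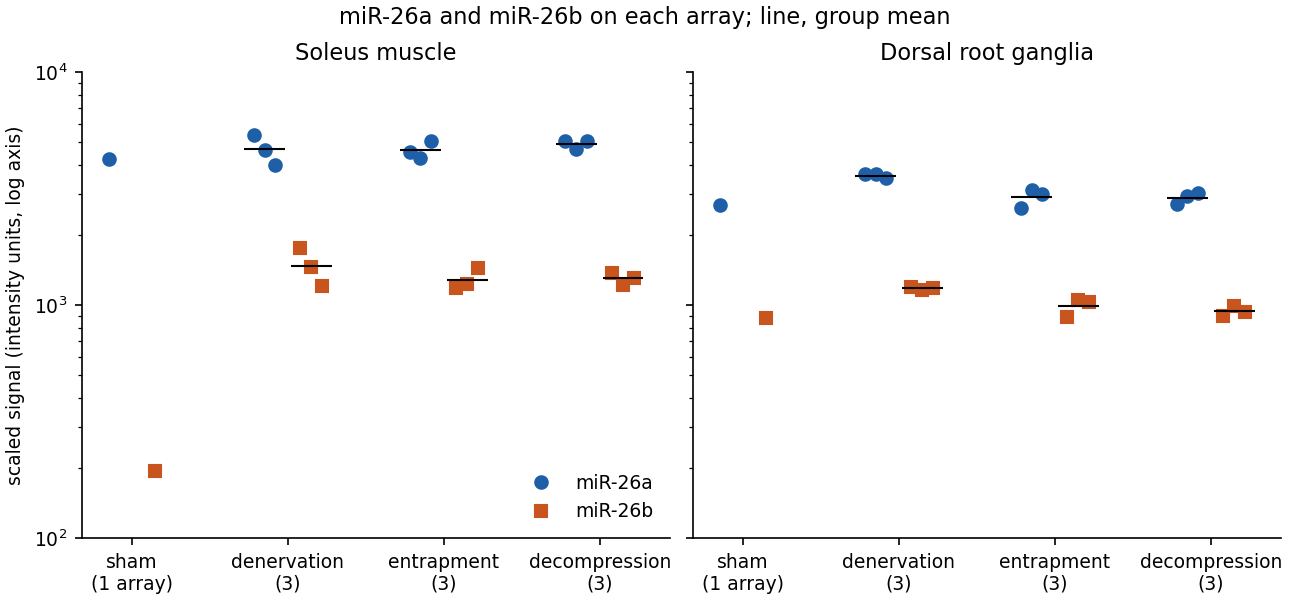
Scaled signal (intensity units, log axis) of miR-26a (circles) and miR-26b (squares) on each of the 10 soleus arrays (left) and the 10 DRG arrays (right), by group, with a line at each mean of 3 arrays. In soleus the sham array gave 194 for miR-26b, below the 1184 of the lowest injury array. The sham point of miR-26a (4258) lay within the range of the injury arrays, above denervation 3 only.

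Differences were tested with limma over all 173 soleus miRNAs detected on at least 3 arrays, with Benjamini-Hochberg adjustment over all of them, and with the single sham array assumed to vary like the other groups. miR-26b was higher than sham by 2.92 on the log2 scale after denervation (SE 0.34, adjusted p = 0.000465), a 7.54-fold difference with a 95% interval of 2.16 to 3.67 on the log2 scale. After entrapment it was higher by 2.73 (SE 0.34, adjusted p = 0.000374), or 6.63-fold. After decompression it was higher by 2.75 (SE 0.34, adjusted p = 0.000333), or 6.72-fold. In the same fits 11%, 9.83% and 9.83% of the 173 miRNAs were called higher after denervation, entrapment and decompression. The authors list miR-26b among the miRNAs downregulated in soleus after entrapment, the opposite direction, and report none as upregulated there. Their rule was a 2-fold change from sham on their own normalized data. In the processed values they deposited, miR-26b was also at least 2-fold above sham on 3 of 3 entrapment arrays (log2 4.80 to 5.07). They list it in neither direction after denervation or decompression. The reason for this disagreement was not tested.

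miR-26a was not called in any of these comparisons. Its log2 differences from sham were 0.12 after denervation (95% interval -0.60 to 0.84, adjusted p = 0.815), 0.12 after entrapment (-0.60 to 0.84, adjusted p = 0.819) and 0.21 after decompression (-0.51 to 0.93, adjusted p = 0.630). Of all soleus miRNAs, 26%, 29.5% and 31.8% were called in either direction. The interval after decompression reached 90.6% above sham, so a moderate rise of miR-26a could not have been told from none with 1 sham array.

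On each of the 9 injury arrays miR-26b was at least 2-fold above sham, as were 14 of the 173 miRNAs (8.09%). Its lowest injury array was 6.12-fold above sham, the fourth highest such value after miR-126*, miR-21 and miR-322. miR-26a took place 44 in that order, with its lowest injury array at 0.938 of the sham level. The 2 endothelial miRNAs, miR-126 and miR-126*, were, with this scaling, also called higher in all 3 comparisons with sham, by 1.64 to 1.93 and by 4.195 to 5.23 on the log2 scale, and their summed scaled signal was 323 on the sham array and 890 to 1455 on the injury arrays. Among the other markers, miR-133b of muscle was lower in all 3 (log2 differences of -2.14 to -1.75), and miR-1 of muscle was higher after denervation, by 3.00. miR-223 of leukocytes was higher after denervation and miR-142-5p of leukocytes lower after entrapment and decompression. miR-219-5p of myelinating glia was lower after denervation, and 0 of the 2 red blood cell markers and 0 of the 6 neuronal ones were called, the latter because none was tested. The part of these cell types in the result for miR-26b was not tested. miR-126* was at the detection floor on the sham array, so its differences depend on that floor.

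**Figure D2:**
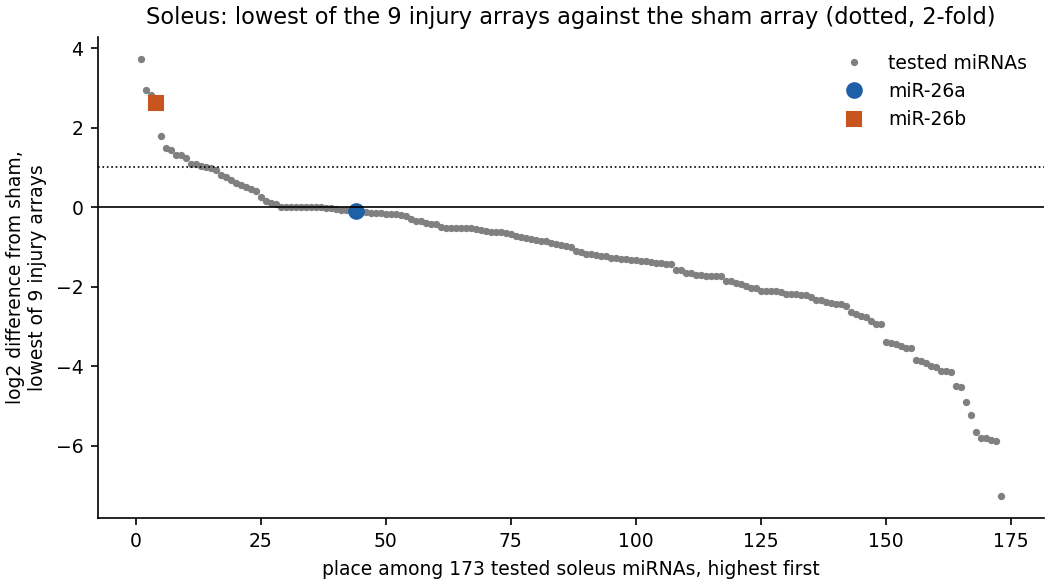
For each of the 173 tested soleus miRNAs, the log2 difference from the sham array on the injury array where it was lowest, ordered from highest to lowest. miR-26b (square) was at 2.61, in place 4, well above the dotted line at a 2-fold difference, and miR-26a (circle) was at -0.09, in place 44.

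The 75th percentile before scaling was 409 on the sham array and 413 on denervation 3, where the unscaled signal of miR-26b was 457 against 72.5 on sham. The unscaled signal of miR-26a was 1510 and 1595 on this pair of arrays. On the sham array the scanner error of miR-26b was 5.65 units, or 7.79% of its signal. With denervation 1 and 2 left out, whose files share the layout of the sham array's file, the difference of miR-26b after denervation was 2.64 (adjusted p = 0.000793). The limma call for miR-26b was lost with the table of processed values that the authors deposited, with differences of 4.85, 4.92 and 3.47 (adjusted p = 0.135, 0.136 and 0.636), and for denervation when only both groups were fitted (adjusted p = 0.0664). With the percentile taken over all 348 miRNAs, miR-26a was called higher after decompression, by 1.00 (adjusted p = 0.0442).

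Among the 3 injuries in soleus, neither member was called. The 6 log2 differences ran from -0.19, for miR-26b between entrapment and denervation (95% interval -0.72 to 0.35, adjusted p = 0.714), to 0.09, for miR-26a between decompression and entrapment (-0.41 to 0.60, adjusted p = 1). limma called 11.6% of the miRNAs between entrapment and denervation and 13.9% between decompression and denervation. It called 0 of 173 between decompression and entrapment, where 6 had an unadjusted p under 0.05. Replicates spread most after denervation, with an SD of 18.8% of the mean for miR-26b and 14.8% for miR-26a, against 5.70% and 4.30% after decompression.

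The ratio of miR-26a to miR-26b within an array is free of the scaling by a constant, and so can be set side by side across arrays. It compares changes and does not give which of the pair is more abundant. On the soleus sham array the ratio was 22.0. On the other 19 arrays of both tissues it lay between 2.91 and 3.84. The sham array of the DRGs, at 3.05, was inside this range, so the soleus sham array alone stood apart. No test was run on the ratio of the sham array.

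Within soleus the log2 ratio was 1.61, 1.67 and 1.72 on the denervation arrays (mean 1.67 ± 0.06, SD, n = 3). It was 1.94, 1.79 and 1.81 on the entrapment arrays (1.85 ± 0.08) and 1.89, 1.94 and 1.94 on the decompression arrays (1.92 ± 0.03). The denervation arrays lay below all arrays of both other groups, so relative to miR-26a the signal of miR-26b was highest after denervation. The difference was 0.18 between entrapment and denervation and 0.26 between decompression and denervation. An exact two-sided permutation test gave p = 0.1 for each, the smallest that 3 arrays against 3 can give (adjusted over 7 tests, p = 0.233). Between decompression and entrapment the exact p was 0.2, and those groups overlapped.

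In the DRGs the log2 ratio was 1.61 ± 0.04 after denervation, 1.56 ± 0.02 after entrapment and 1.62 ± 0.07 after decompression (SD, n = 3 each). All 3 pairs of groups overlapped, with exact permutation p = 0.2, 1 and 0.2. Over the injury arrays the mean log2 ratio was 1.81 in soleus and 1.59 in the DRGs, a difference of 0.22 (exact permutation test on 9 against 9 arrays, two-sided p = 0.000329, adjusted p = 0.00230). This test pooled the 3 injury groups, which did not differ equally between tissues. The soleus and DRG means were 1.67 and 1.61 after denervation, 1.85 and 1.56 after entrapment, and 1.92 and 1.62 after decompression. The ranges of both tissues overlapped, because the soleus denervation arrays lay at 3.05 to 3.30 on the linear scale against 2.91 to 3.23 for the DRG injury arrays. If both tissues of an injury group came from the same rats, which the labels do not say, the arrays are not independent and this p is not exact.

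**Figure D3:**
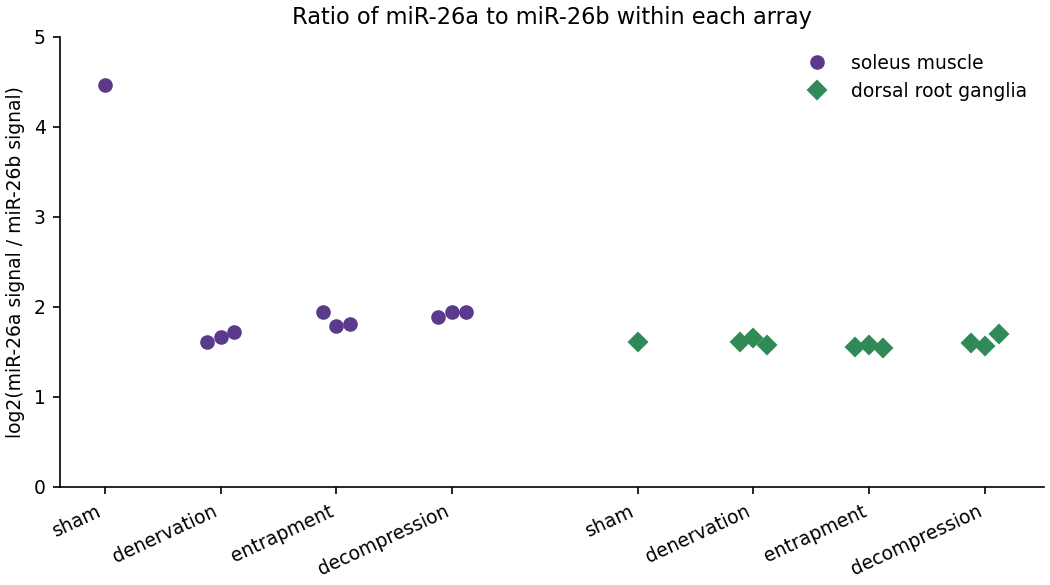
Log2 ratio of the miR-26a signal to the miR-26b signal within each array, by group, for soleus (circles) and DRGs (diamonds). The soleus sham array was at 4.46 (22.0-fold), and the other 19 arrays lay between 2.91-fold and 3.84-fold.

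In the DRGs, both members moved together and within a narrow range. Groups follow the labels of the scanner files. In the processed table the entrapment and decompression values of the DRGs stand under each other's names, and which source names them correctly is not settled, so results that separate these groups carry that doubt. Either way the 6 arrays belong to these 2 groups together. The scaled signal of miR-26a was 2688 on the sham array. It was 3640, 3650 and 3516 after denervation, 2626, 3122 and 3015 after entrapment, and 2714, 2944 and 3020 after decompression. The denervation arrays were the 3 highest, and the sham array stood near the lowest arrays of the other injuries.

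The scaled signal of miR-26b in the DRGs followed the same order of groups. It was 882 on the sham array, 1195, 1162 and 1184 after denervation, 893, 1048 and 1036 after entrapment, and 898, 997 and 934 after decompression. The sham value was the lowest of the 10, by a small margin.

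After denervation, both were higher than sham by 0.42 on the log2 scale, a 1.34-fold difference (SE 0.12 for each), on 3 of 3 arrays. Neither passed the threshold after limma's adjustment over the 219 tested DRG miRNAs (adjusted p = 0.137 for both), where 0.457% of the miRNAs were called. The 95% interval was 0.14 to 0.70 for miR-26a and 0.15 to 0.69 for miR-26b, before adjustment for the number of miRNAs. After entrapment and decompression the differences from sham were 0.09 to 0.17, with adjusted p of 0.334 to 0.550, where 19.6% and 18.3% of the miRNAs were called. Direction and call changed here with the scaling. Scaling to the median gave 0.95 to 1.01 for both members (adjusted p of 0.00456 to 0.00550), and quantile normalization gave -0.29 and -0.25 for miR-26a (adjusted p = 0.0286 and 0.0405).

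The entrapment and decompression arrays were lower than the denervation arrays for both members, with no overlap between groups. miR-26a was lower by 19.1% after entrapment (log2 difference -0.31, SE 0.09, adjusted p = 0.0240) and by 19.8% after decompression (-0.32, SE 0.09, adjusted p = 0.0193). miR-26b was lower by 16.1% after entrapment (-0.25, SE 0.08, adjusted p = 0.0424) and by 20.2% after decompression (-0.33, SE 0.08, adjusted p = 0.0159). limma called 32.9% and 27.9% of all DRG miRNAs lower in these comparisons, and 51.1% and 56.6% did not overlap between the groups in either direction, so such calls were common on these arrays.

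These differences depend on the scaling. The median difference of all 219 miRNAs was -0.15 in both comparisons, and relative to it the log2 differences of both members were -0.18 to -0.11. When arrays were scaled to their median, this overall median became 0.49 and 0.51 and the members' differences turned to values between 0.33 and 0.39 in the opposite direction, called for miR-26b after entrapment (adjusted p = 0.0470). The median signal of an array, before scaling, was 20.4 to 24.1 for sham and denervation and 8.54 to 14.1 for the others. In these 2 comparisons, no scaling or either other factor per array also gave differences of -0.18 to -0.11 relative to the median of all miRNAs. That is no test, since 1 factor per array shifts a member and that median almost alike. Quantile and loess scaling can change these differences relative to the median, and gave -0.41 to -0.15 and -0.29 to -0.22 over both members and comparisons.

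The calls also rest on few arrays. For miR-26a the call between entrapment and denervation was lost without denervation 1, 2 or 3 (adjusted p = 0.0724, 0.0591 and 0.0547), and that between decompression and denervation without denervation 1 or 2 or decompression 1 (0.0672, 0.05004 and 0.0625). For miR-26b the first was lost when any array but decompression 1 was left out (up to 0.110), and the second without denervation 1 or decompression 1 (0.0590 and 0.0528). Between decompression and entrapment the differences were -0.01 for miR-26a and -0.07 for miR-26b (adjusted p = 1 for both, with 95% intervals of -0.21 to 0.18 and -0.26 to 0.12), and limma called 0 of the 219 miRNAs, 9 of them with an unadjusted p under 0.05.

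**Figure D4:**
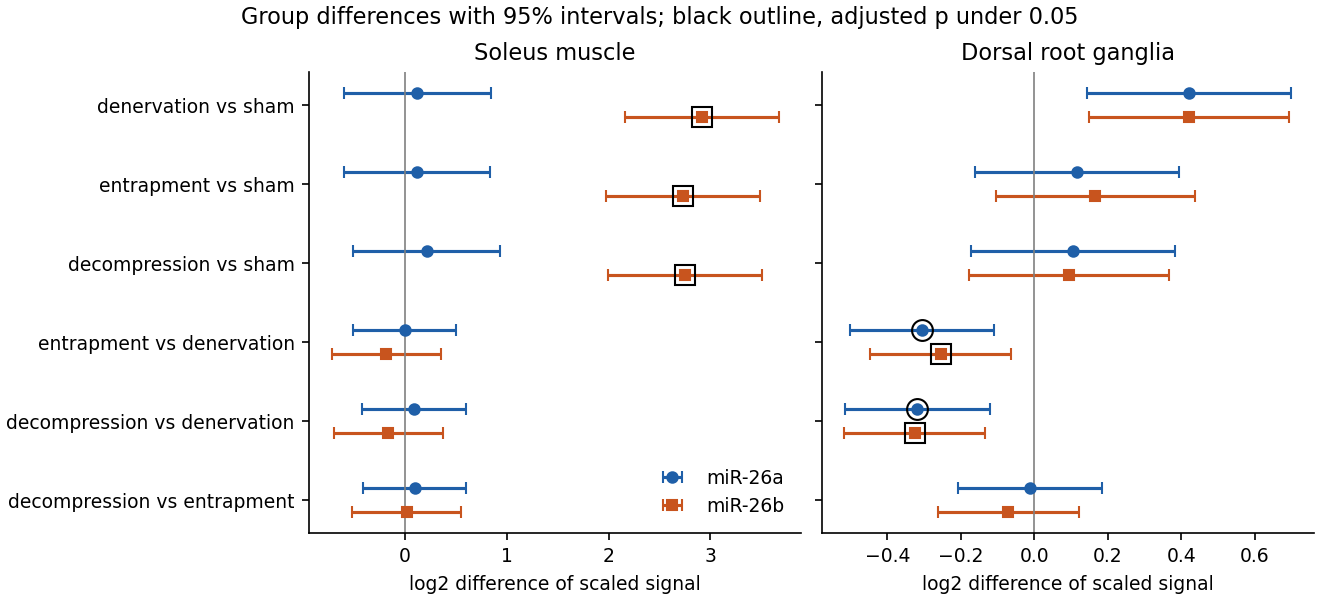
Log2 differences of the scaled signal between groups, with 95% intervals from limma, for miR-26a (circles) and miR-26b (squares) in soleus (left) and DRGs (right), on axes of different width. Black outlines mark an adjusted p under 0.05, reached by miR-26b in the 3 soleus comparisons with sham (2.73 to 2.92) and by both members in the DRGs for entrapment and decompression against denervation (-0.33 to -0.25).

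Between tissues, the 20 arrays were fitted together with a 75th percentile taken from the 102 miRNAs that all of them detected. On this scale miR-26a had a median of 3853 (3312 to 4551) on the 9 injury arrays of soleus and of 3574 (3321 to 4266) on those of the DRGs. For miR-26b the medians were 1073 (956 to 1493) and 1188 (1105 to 1358). The ranges of the tissues overlapped for both members.

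Ordered by their means, the groups ran for miR-26a from soleus decompression (4030) through DRG denervation, soleus denervation, soleus entrapment, soleus sham, DRG entrapment and DRG decompression (3456), each overlapping its neighbour, to the DRG sham array (2993), which lay below all others. For miR-26b the order was DRG denervation (1295), soleus denervation, DRG entrapment, DRG decompression, soleus decompression, soleus entrapment and DRG sham (982), again each overlapping its neighbour, and then soleus sham at 164, far below.

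The mean difference of soleus from DRGs over the injury groups was 0.09 for miR-26a (95% interval -0.09 to 0.28, adjusted p = 0.340) and -0.13 for miR-26b (-0.32 to 0.07, adjusted p = 0.209). Of the 162 miRNAs tested in both tissues, 82.1% were called. That neither member was called is a matter of the scaling, since scaling to the median gave 0.59 for miR-26a (adjusted p = 2.78e-05) and 0.38 for miR-26b (adjusted p = 0.00292), both then called higher in soleus. The difference of each injury from sham was larger in soleus than in the DRGs for miR-26b, by 2.50, 2.37 and 2.50 on the log2 scale for denervation, entrapment and decompression (SE 0.32, adjusted p = 9.20e-05, 0.000115 and 5.60e-05), where 27.2%, 31.5% and 30.2% of the miRNAs were called. For miR-26a the same differences were -0.30, -0.19 and -0.05 (adjusted p of 0.501 to 0.931). These rest on the same 2 sham arrays.

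The miRNAs whose log2 signal ran most like that of a member over the 10 arrays of a tissue are given as a description, since arrays share brightness and the sham array. In soleus the 3 likest to miR-26a were miR-218 (Pearson r 0.91), miR-101b (0.91) and miR-29c* (0.88). Those likest to miR-26b were miR-126* (0.96), miR-21 (0.95) and miR-148b-3p (0.93). Some of these signals came near the soleus floor of 2.72. The lowest scaled signal was 4.82 for miR-218, after denervation, and 3.94 for miR-148b-3p, on sham, where miR-126* was at the floor. Over the 9 injury arrays, without sham, the r of miR-126* was 0.51 and that of miR-21 was 0.18, while that of miR-148b-3p was 0.95. The likeness of miR-26b to miR-126* and miR-21 in soleus therefore rested on the sham array.

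In the DRGs the members were each other's nearest over the 10 arrays, with r 0.96. Over the 9 injury arrays miR-30e (0.98) and miR-101b (0.97) came before miR-26b (0.96) for miR-26a, and by Spearman over 10 arrays miR-101b (0.96) came before miR-26b (0.92). By Pearson over 10 arrays miR-101b (0.95) and miR-21 (0.94) came next for miR-26a, and let-7f (0.93) and miR-101b (0.92) for miR-26b. In soleus the r between the members was 0.47 over 10 arrays and 0.73 over the 9 injury arrays.

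Other miRNAs reported to act on Ezh2, as miR-26a does, were miR-101a, miR-101b, miR-124, miR-138, miR-214 and miR-98. In soleus 4 of the 6 were tested, and 0 were called by limma in any of the 6 comparisons, nor did any have an unadjusted p under 0.05. Of all 173 miRNAs, 26%, 29.5% and 31.8% were called against sham, and 11.6%, 13.9% and 0% between injuries. Their median log2 difference from sham was -0.18, -0.02 and 0.01 after denervation, entrapment and decompression, beside -0.07, -0.37 and -0.29 over all miRNAs. In the DRGs all 6 were tested. miR-124, a neuronal miRNA, was higher after entrapment and decompression than after denervation, by 0.50 in both (adjusted p = 0.00128 and 0.00132), and the other 5 were not called in any comparison. In those comparisons 41.1% and 36.5% of all DRG miRNAs were called. After denervation against sham, with none of the 6 called, the log2 differences were 0.51 for miR-101a, 0.46 for miR-101b and 0.18 for miR-98. They were -0.38 for miR-124, -0.39 for miR-138 and -0.25 for miR-214.

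The 11 broadly expressed miRNAs, of which 10 were tested in each tissue, showed the level of change on the same arrays. With the scaling used here, miR-30c was in soleus higher than sham in all 3 injury groups, by 1.75 to 2.94 on the log2 scale, miR-92a was lower in all 3 and miR-93 in 2. That is 2, 3 and 3 of 10 called after denervation, entrapment and decompression, beside 26%, 29.5% and 31.8% of all tested miRNAs. In the DRGs, 0 of them was called after denervation against sham (3 with an unadjusted p under 0.05), and miR-30c was lower after entrapment and decompression, with log2 differences of -1.05 and -1.12. Of all 219 DRG miRNAs, 0.457% were called after denervation by limma, and 15.5% had an unadjusted p under 0.05. After entrapment and decompression 19.6% and 18.3% were called. The median difference of the broadly expressed miRNAs from sham in soleus was -0.07, 0.23 and 0.32, and in the DRGs 0.11, 0.15 and 0.20.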

How the data were processed

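The authors deposited scanner output for all 20 arrays. Per the file headers, every miRNA has a linear intensity (total gene signal), which Agilent Feature Extraction 9.5.3 summed over background-subtracted probes, and beside it an error and a detection call (other). Nothing had been done to bring arrays to a common level. A second table that the authors deposited holds processed signal values. In it both members keep their scanner intensity up to 1 factor per array, and in the DRGs the columns named for entrapment and decompression match the scanner files of the other group. On labelling the sources differ, with amplification and Cy3-CTP in the labels and ligation of pCp-Cy3 in the methods. No column holds results of the authors' own comparisons. Slide and scan could not be read from the files used here, so neither was tested as a batch.

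For scaling, signals were divided by the array's 75th percentile and multiplied by the median percentile of the tissue. Because under 50% of the miRNAs were detected on a typical soleus array (median 148.5 of 348), that tissue's percentile used only the 108 found on every array. Values below a floor were raised to it before the log2 step. The floor (soleus 2.72, DRGs 2.28) was the median across arrays of the dimmest detected miRNA after scaling. Tests used limma 3.58.1 in R 4.3.3 (lmFit, then eBayes) on miRNAs with a detection call on 3 or more arrays of the tissue, with a term for group alone and 6 residual degrees of freedom, two-sided, with Benjamini-Hochberg adjustment at 0.05. A fit over all 20 arrays compared the tissues. Ratios of the members were compared with exact permutation tests (scipy 1.17.1). The labels number the injury arrays as experiment replicates and the methods give 3 rats per group, and p-values measure the spread between these arrays only. Their number limits the precision of every value. The scripts were tested on simulated data.

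As alternatives, arrays were left unscaled or were scaled by median, quantile or rank-consistent loess, or by a percentile over the other miRNA set. The detection filter was dropped or tightened to every array, the processed values replaced the scanner values, and the model was given an intensity trend, only the groups in question, or a replicate block. Each injury array was also left out in turn. The fits without denervation 1 and 2, with a block over both tissues, and the likeness over 9 injury arrays were added after seeing the data. The members and lists were chosen with earlier results of these data known. The miRNAs named are both members and, for each member and tissue, the 3 others with the highest Pearson correlation over the 10 arrays. miR-30c, miR-92a, miR-93, miR-322, miR-30e and the cell type markers given with values were named after their values were seen. The markers used were miR-1, miR-133a, miR-133b, miR-206 and miR-499 for muscle, and miR-9, miR-124, miR-138, miR-96, miR-182 and miR-183 for neurons, miR-144 and miR-451 for red blood cells, miR-142-3p, miR-142-5p, miR-150 and miR-223 for leukocytes, miR-126 and miR-126* for endothelium, and miR-219-5p and miR-338 for myelinating glia. Mature sequences and gene spans came from RefSeq tables of GRCr8, in which both members were found. Figures were drawn with matplotlib 3.10.9.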

Additional observations from a re-analysis of the deposited data

Results flagged for a closer look

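The difference of miR-26b from sham was not the same in the 2 tissues. In the fit over all 20 arrays, with limma's interaction contrast, it was larger in soleus than in the DRGs by 2.50 on the log2 scale for denervation, by 2.37 for entrapment and by 2.50 for decompression. Of the 162 miRNAs tested in both tissues, 27.2%, 31.5% and 30.2% were called in these contrasts. All 3 contrasts use the same sham array of each tissue, and the soleus sham array carries the lowest miR-26b signal of the series. The cause was not tested.

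The opposite arm of the miR-26b hairpin, miR-26b*, was measured on the same arrays and is no member of the pair. It was detected on 1 of 10 soleus arrays, decompression 2, with an unscaled signal of 15.4 (scanner error 3.27), and on 0 of 10 DRG arrays. Where it was not detected its signal was -2.33 to 3.57, sham arrays included. Its sequence on RefSeq GRCr8 (chr9:83425759-83425780) has the seed in capitals and shares no seed with miR-26a or miR-26b.
miR-26b*: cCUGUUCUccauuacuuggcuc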

How the results depend on the processing

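In soleus miR-26b stayed above sham under every scaling, filter and model tried, by 2.73 to 4.92 on the log2 scale, and was called in all of them but those named here. Only the scalings and the processed values could change the size of this difference, and all settings used the same sham array. With the processed values the differences were 4.85, 4.92 and 3.47 for denervation, entrapment and decompression (not called), and miR-26b was 2-fold above sham on 2 of 3 decompression arrays. Over the soleus arrays the factor between scanner and processed values ran from 38.7 on denervation 3 to 1222 on decompression 2. With only both groups fitted, denervation gave 2.92 (not called). Leaving out an injury array gave 2.65 to 3.05, all called. miR-26a stayed uncalled against sham except with the percentile over all miRNAs (1.00 after decompression). It was 2-fold above sham on 3 of 3 arrays after entrapment and after decompression with no scaling, and after denervation and after entrapment with the processed values. Without denervation 1 and 2 its difference after denervation was -0.092.

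The sign of differences between injuries in soleus varied, and none was called. For entrapment against denervation, miR-26a was 0.14 with no scaling, 0.21 with the median, 0.51 with the percentile over all miRNAs, 0.25 with the processed values and 0.21 without denervation 1 and 2, and miR-26b was 0.030 with the median, 0.33 with the percentile over all miRNAs, 0.065 with the processed values and 0.087 without denervation 1 and 2. For decompression against denervation, miR-26a was -0.039 with no scaling, -0.040 with quantiles, -0.15 with loess and -1.13 with the processed values, and miR-26b was 0.33 with the percentile over all miRNAs and 0.11 without denervation 1 and 2. For decompression against entrapment, miR-26a was -0.18 with no scaling, -0.062 with loess and -1.38 with the processed values, and miR-26b was -0.26, -0.056 and -1.45 there and -0.055 with the median. With an array left out these ranged from -0.11 to 0.10 and -0.017 to 0.20 for miR-26a in the first and second comparison, and from -0.039 to 0.10 for miR-26b in the third.

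In the DRGs, entrapment and decompression against sham gave for miR-26a -0.24 and -0.24 with no scaling, 0.96 and 0.96 (called) with the median, -0.29 and -0.25 (called) with quantiles and -0.11 and -0.10 with loess. For miR-26b they gave -0.19 and -0.25 with no scaling, 1.01 and 0.95 (called) with the median, and -0.020 for decompression with loess. Against denervation, the median gave 0.34 and 0.33 for miR-26a and 0.39 (called) and 0.33 for miR-26b. Quantiles gave -0.13 and -0.19 for miR-26b (not called), and only both groups -0.25 for entrapment (not called). With an array left out, entrapment against denervation ranged from -0.36 to -0.23 for miR-26a and from -0.30 to -0.18 for miR-26b, and decompression against denervation from -0.35 to -0.27 and from -0.37 to -0.29. Decompression against entrapment turned to 0.032 with quantiles, 0.0059 with loess and 0.022 with the processed values for miR-26a (-0.087 to 0.038 with an array left out), and to 0.081 with the processed values for miR-26b. The processed table and the scanner files name these groups the other way round, which also turns the DRG differences in log2 ratio to 0.0075, -0.052 and -0.060.

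Soleus against DRGs gave 0.59 and 1.07 (called) for miR-26a with the median and with the percentile over all miRNAs, and 0.45, 0.38 (called) and 0.86 (called) for miR-26b with no scaling and with these. The tissue differences of miR-26a against sham were 1.09, 1.99 and 1.80 with no scaling, and 0.18 for decompression with the median. Between injuries, the tissue difference of miR-26b was 0.66 with no scaling and 0.10 with the median for entrapment against denervation, and -0.18 and -0.20 with no scaling for miR-26a and miR-26b for decompression against entrapment. With an array left out, miR-26a ranged from -0.0056 to 0.22 and miR-26b from -0.27 to 0.019 for entrapment against denervation, and miR-26b from -0.14 to 0.15 for decompression against denervation. None of those between injuries was called.

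Between arrays of the same replicate number, deviations from the group mean had correlations of -0.47 to 0.21 in soleus and -0.12 to 0.48 in the DRGs. Between the tissues, within an injury group, they were -0.26 to 0.24. Arrays of unlike number were not compared in this way, so whether the numbers pair the arrays is not settled. A replicate block over the 9 injury arrays changed no call (DRG miR-26b, entrapment against denervation, -0.25, adjusted p = 0.0490 by limma). The number of like miRNAs kept fell to 1 of 3 with Spearman for 3 of 4 lists, and without sham for miR-26b in soleus. Over all results and settings, 739 recomputed values kept their direction and side of the threshold, 23 lost a call, 7 gained one, 73 changed sign, most of them uncalled, and 9 others moved. Many of the values could not change direction. A filter, another model or the loss of an array from a group not compared leaves the difference as it was.

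Precision is limited by the single sham array per tissue, by 3 arrays per group and by the choice of scaling.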
